A study of Mus musculus with 14 samples.

Results

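The report covers H3K9ac, the acetylation of lysine 9 on histone H3, at 9 genes of de novo fatty acid synthesis in regenerating mouse liver: Fasn, its neighbour Ccdc57, Acaca, Acacb, Acly, Me1, Scd1, Elovl6 and Srebf1. Out of 21896 protein-coding genes, they were chosen by their place in the pathway and selected on tags, called length and fold enrichment of these same libraries, d22 against pbs, which were already known. A region belonged to them when it overlapped the mm10 RefSeq span of a gene extended by 10 kb on each side. Peaks of the 12 libraries that overlapped were merged into 57979 regions, and 119 of these lay in the 9 windows. Of the 119, 18 were called in all 12 libraries, 35 in 2 to 11 and 66 in 1. Because the contrast chose the genes, their values are given as a description, with no test.

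Livers came from male C57BL6/J mice aged 2-3 months and were taken 12 h after partial hepatectomy, the surgical removal of part of the liver, after which the remainder regrows. All libraries share this operation, and no transgene or mutation is named. The study asked what delaying the low blood glucose that follows the operation does to the mark. The 6 libraries titled d22 carry the treatment label "vehicle (1/2 strength PBS)", and the 6 titled pbs carry "dextrose (22.5% in vehicle)", so title and treatment label contradict each other. Both pooled inputs, 1 titled d22 and 1 titled pbs, carry the dextrose label. Libraries are named here by title, and no treatment was inferred from their values. The labels do not say that the libraries came from separate mice, so the spread between libraries may be partly technical.

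Liver makes fatty acids from surplus carbohydrate. ATP citrate lyase (Acly) splits citrate into cytosolic acetyl-CoA, the acetyl-CoA carboxylases (Acaca, Acacb) turn it into malonyl-CoA, and fatty acid synthase (Fasn) builds palmitate with NADPH that malic enzyme (Me1) helps to supply. Elovl6 lengthens palmitate, Scd1 introduces a double bond, and Srebf1 encodes the transcription factor SREBP-1, which insulin activates and which turns on most of these genes in liver. H3K9ac marks active promoters and enhancers and is usually strongest just downstream of a transcription start.

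Promoter sequences at annotated starts of these genes were read for short motifs, whether or not a peak covered the start. RefSeq (GRCm38.p6) gave 11 promoter entries for 8 of the genes, and none was matched for Scd1. Each entry runs from 250 bases before the start to 50 bases after it. Capitals mark CCAAT (the NF-Y box), GGGCGG (the GC box of Sp1-type factors) and ATCACCC (the core of the sterol element that SREBP binds), each read on both strands. The entries printed are those of Acly and Me1 for carbon and NADPH supply, of Fasn and Acaca for the synthesis steps, and 2 of Srebf1 for its separate starts. They are given 5′ to 3′ on the gene's strand.
Acly, chr11:100527951-100528250, minus strand: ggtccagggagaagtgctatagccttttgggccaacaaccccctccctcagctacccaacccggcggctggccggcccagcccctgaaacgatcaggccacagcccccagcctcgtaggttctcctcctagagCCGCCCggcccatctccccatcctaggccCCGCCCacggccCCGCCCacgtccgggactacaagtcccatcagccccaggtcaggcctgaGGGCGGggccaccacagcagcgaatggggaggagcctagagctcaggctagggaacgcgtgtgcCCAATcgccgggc
Me1, chr9:86695865-86696164, minus strand: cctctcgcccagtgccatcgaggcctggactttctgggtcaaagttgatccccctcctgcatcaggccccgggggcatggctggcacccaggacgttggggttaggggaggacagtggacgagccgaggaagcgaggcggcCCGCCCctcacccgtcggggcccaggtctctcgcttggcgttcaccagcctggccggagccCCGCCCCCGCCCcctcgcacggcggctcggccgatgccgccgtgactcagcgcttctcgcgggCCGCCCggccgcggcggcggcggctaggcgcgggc
Acaca, chr11:84195188-84195487, plus strand: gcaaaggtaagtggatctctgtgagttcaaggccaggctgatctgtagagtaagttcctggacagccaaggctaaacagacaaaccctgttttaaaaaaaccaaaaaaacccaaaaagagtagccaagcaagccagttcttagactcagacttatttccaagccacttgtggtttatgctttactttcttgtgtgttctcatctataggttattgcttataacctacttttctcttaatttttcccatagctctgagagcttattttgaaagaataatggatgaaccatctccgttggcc
Fasn, chr11:120824498-120824797, minus strand: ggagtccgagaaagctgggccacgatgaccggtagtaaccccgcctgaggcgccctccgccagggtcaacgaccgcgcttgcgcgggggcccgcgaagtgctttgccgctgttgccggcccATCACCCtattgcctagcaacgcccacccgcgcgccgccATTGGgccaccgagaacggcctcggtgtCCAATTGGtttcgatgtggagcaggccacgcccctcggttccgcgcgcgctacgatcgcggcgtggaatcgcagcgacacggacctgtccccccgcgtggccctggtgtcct
Srebf1, chr11:60220578-60220877, minus strand: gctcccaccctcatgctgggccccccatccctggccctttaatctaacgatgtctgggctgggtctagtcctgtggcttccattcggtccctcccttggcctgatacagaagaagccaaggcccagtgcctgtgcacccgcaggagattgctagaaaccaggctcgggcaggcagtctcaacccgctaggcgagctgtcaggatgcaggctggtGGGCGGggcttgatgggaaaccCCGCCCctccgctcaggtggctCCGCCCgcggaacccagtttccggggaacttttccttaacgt
Srebf1, chr11:60210422-60210721, minus strand: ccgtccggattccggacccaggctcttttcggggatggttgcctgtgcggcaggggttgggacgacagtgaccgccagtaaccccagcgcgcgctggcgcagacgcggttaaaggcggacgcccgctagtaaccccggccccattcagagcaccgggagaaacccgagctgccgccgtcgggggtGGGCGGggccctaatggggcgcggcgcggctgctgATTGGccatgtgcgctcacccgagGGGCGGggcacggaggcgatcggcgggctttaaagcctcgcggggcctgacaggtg
The Fasn window held ATCACCC 1 time and CCAAT 3 times, 2 of them overlapping on opposite strands. The Acly and Me1 windows held GGGCGG 4 times each. Of the 32851 RefSeq promoter windows of this length, 37.4% held CCAAT, 35.7% held GGGCGG and 2.69% held ATCACCC. The E-box letters CACGTG were in 7.15% of all windows and in 0 of the 11 entries. The Acaca entry held none of these letters and had a GC content of 39.7%, against 69.3% for Fasn, 68.7% for Acly, 74.7% for Me1 and a median of 52.7% over all entries. A match describes letters only.

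Depth after filtering ran from 6343891 tags (d22 4) to 13259411 tags (pbs 1). Library d22 4, the shallowest, had the longest peak list, with 44585 peaks against 26352 to 30780 in the other 11. Values without it are given for some results only. Each peak was called against the pooled input with the same title as its library, so input and group cannot be told apart in any measure that follows. All 7 hepatocyte markers were called in all 12 libraries, with a summed level of 332 to 450 (median 357) in d22 and 430 to 496 (median 478) in pbs, in RPM (tags in called peaks per 1000000 tags of the library). Among adipocyte markers, Adipoq and Lep were called in 0 libraries and Plin1 in 1, while Fabp4 was called in 10 and Cidec in 12. The sum over this list was 41.3 to 66.0 RPM in d22 and 52.9 to 68.6 RPM in pbs, and no lymphocyte marker was called in any library. The part of cell composition in the results was not tested.

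The 9 windows held a larger share of each library's acetylated tags in d22. They took 0.159 to 0.218% of all tags in peaks in d22 (median 0.185%), against 0.125 to 0.156% in pbs (median 0.134%), and the groups did not overlap. Without the region inside Ccdc57 described below, the shares were 0.145 to 0.200% in d22 and 0.118 to 0.150% in pbs, and the groups overlapped. The windows held 40 to 91 peaks in d22 (median 52) and 35 to 50 in pbs (median 43.5). Their share of all peaks was 0.151 to 0.204% in d22 and 0.128 to 0.170% in pbs. Their share of all called length was 0.157 to 0.222% in d22 and 0.132 to 0.159% in pbs. The groups overlapped in both of these shares. Because the contrast chose the genes, nothing is read from the separation in tags.

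Taken one by one, the windows differed widely. Mean RPM was higher in d22 in 9 of 9 windows, while this was so in 13.4% of the 12416 windows of protein-coding genes with peaks in all 12 libraries, where the median log2 ratio was -0.20. Mean called length was also higher in d22 in 9 of 9, against 38.0% of those windows. Nothing is read from these counts, since the contrast chose the genes. In RPM the groups overlapped in all 9 windows, and d22 stood wholly above pbs in 0.0403% of all windows. The Fasn and Ccdc57 windows overlap, and both hold the Fasn start and the region inside Ccdc57 described below. Tags there are counted in both windows, so these are not separate observations. The ratio of means on the log2 scale was 1.49 at Scd1, 0.61 at Acaca, 0.45 at Ccdc57, 0.27 at Fasn and 0.21 at Acacb. It was 0.09 at Me1, 0.02 at Acly, 0.02 at Elovl6 and 0.01 at Srebf1, windows whose mean levels were close to equal in RPM. With TMM scaling, which sets the regions called in all 12 libraries level, these were 0.31, 0.26, 0.25 and 0.26 (Me1, Acly, Elovl6 and Srebf1). Without d22 4 the count was 7 of 9, with Acacb at -0.02 and Elovl6 at -0.05. Acaca fell to 0.30, Ccdc57 to 0.34 and Scd1 to 1.33.

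**Figure D1:**
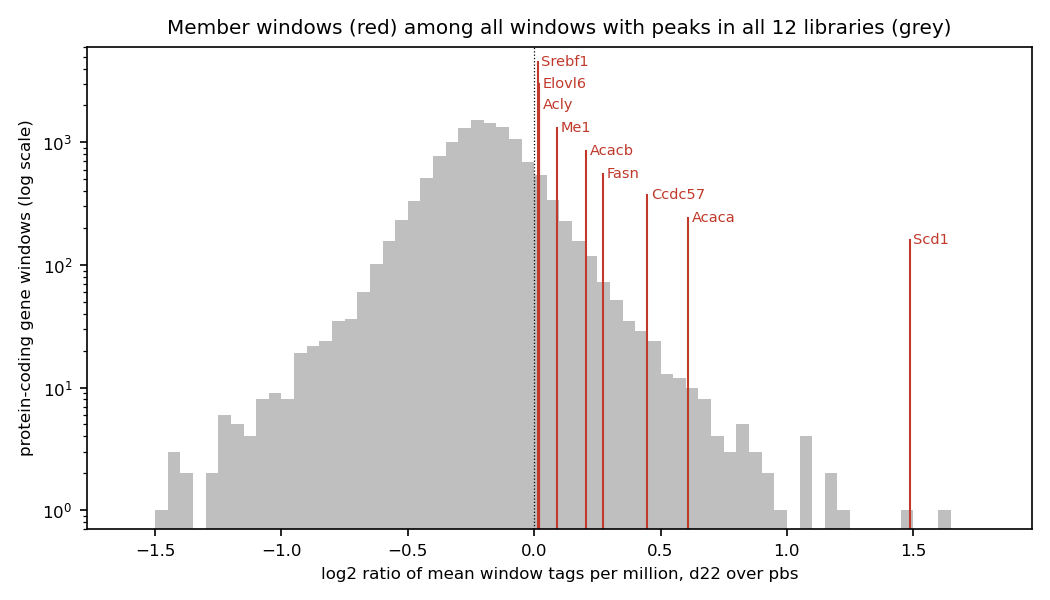
Histogram of the log2 ratio of mean window RPM, d22 over pbs (x axis), over 12416 windows of protein-coding genes, with the number of windows on a log scale (y axis) and the 9 genes as red lines. The 9 lines lie to the right of 0 and of the overall median of -0.20, from 0.01 at Srebf1 to 1.49 at Scd1.

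Regions called in all 12 libraries allow a fit to all tags. Values in CPM below are tags scaled to the tags in the 12375 regions called in every library, and log2 fold changes are d22 over pbs with their SE from that fit over all 12375 regions (edgeR). Of the 18 regions of these genes, 1 was past the adjusted p threshold of 0.05 in either direction, against 1.01% of all regions, and nothing is read from this. The fold change was positive in 14 of 18 regions, against 50.9% of all regions, with a median of 0.29 against 0.00, but in fold enrichment over input, where the median of all regions was -0.30, only 5 of 18 were positive. Scaled by library totals the median of all regions was -0.22 and 11 of 18 were positive. Measured from the median of all regions, 13 of 18 were higher in tags and 13 of 18 in fold enrichment, 11 of them in both. That relative median was 0.28 in tags, 0.10 in tags per kb of called peak and 0.04 in fold enrichment. In whole liver, a larger fraction of cells with the mark and more mark per cell cannot be told apart.

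The region with the largest difference lay inside Ccdc57 and upstream of Fasn. Ccdc57 encodes a coiled-coil protein and is transcribed in the same direction as Fasn, which lies downstream of it. The region, chr11:120828923-120834231, sits 3757 bp beyond the upstream end of the Fasn span. It had 148.5, 180.2 and 259.9 CPM in d22 (lowest, median and highest) and 70.5, 74.1 and 107.1 CPM in pbs. Every d22 library stood above every pbs library, which in CPM was so for 0.59% of all regions. The log2 fold change was 1.17 ± 0.14 and stayed between 1.08 and 1.26 on leaving out each library.

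Both the width and the density of that region were higher in d22. Called peaks covered 3570 to 5118 bp of it in d22 and 2484 to 3461 bp in pbs, without overlap, which was so for 0.0727% of all regions. Tags per kb of called peak were 40.7 to 70.5 CPM per kb in d22 and 22.3 to 32.8 in pbs, again without overlap (0.259% of all regions). The authors' highest fold enrichment was 32.62 to 68.26 in d22 and 21.97 to 35.93 in pbs, ranges that overlapped. The log2 differences were 0.37 in called length, 0.81 in tags per kb and 0.81 in fold enrichment.

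**Figure D2:**
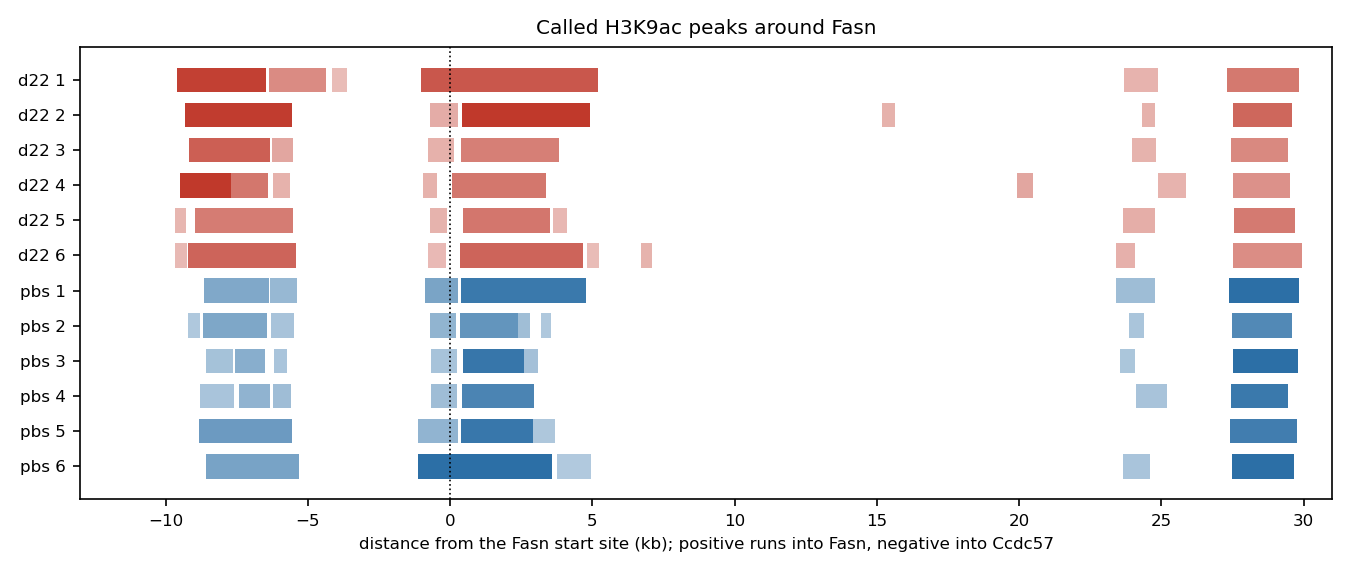
Called peaks of each library around Fasn by distance from its start in kb (x axis), d22 libraries above pbs libraries, with darker bars for higher fold enrichment. The d22 bars left of the start, inside Ccdc57, are wider and darker than the pbs bars, while those at the start of Fasn and at the Dus1l end near 28 kb are present in all 12 libraries.

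The start of Fasn itself, in chr11:120819325-120825670, differed less than its neighbour. It had 125.2, 196.1 and 232.7 CPM in d22 and 122.1, 151.4 and 215.7 CPM in pbs, and the groups overlapped over most of their range. The fold change was 0.25 ± 0.15, and 0.34 without d22 4, the lowest d22 library here. It was 0.03 under library totals and -0.29 in fold enrichment. The main summit lay 783 to 1017 bp downstream of the printed start in d22 and 820 to 1183 bp in pbs, so its place was shared. A peak covered the printed start in 3 d22 and 6 pbs libraries, with a gap there in the others. The upstream end of the Fasn span, in the same region, was covered in 6 d22 and 6 pbs libraries. At the far side of the window, the end of Dus1l differed by 0.00 ± 0.11 in tags. In fold enrichment it differed by -0.98, against a median of -0.30 over all regions.

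The remaining regions of Ccdc57 gave smaller differences. The region at its own start, chr11:120931881-120933433, was called in 5 d22 and 6 pbs libraries, with 3.27 to 5.96 RPM in d22 and 3.60 to 6.69 in pbs. A further internal region, chr11:120902082-120904613, had a fold change of 0.36 ± 0.34 that went to 0.06 without d22 4. In fold enrichment it differed by -0.33.

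Acly and Me1, which supply carbon and NADPH, had higher mean CPM at their starts in d22. Acly, the citrate cleavage enzyme, had 181.7, 209.4 and 264.6 CPM over its start (chr11:100523962-100529610) in d22 and 158.5, 171.0 and 201.8 CPM in pbs. Only pbs 1 reached into the d22 range, and the fold change was 0.30 ± 0.09. It was 0.06 under library totals and -0.29 in fold enrichment, close to the median of all regions (-0.30). Me1, cytosolic malic enzyme, had 58.3, 87.7 and 142.3 CPM at its start (chr9:86692953-86696652) in d22 and 54.5, 60.3 and 70.9 CPM in pbs. Here d22 3 lay among the pbs libraries while the other 5 d22 libraries stood above all of them. The fold change was 0.60 ± 0.16, or 0.47 without d22 4. At Me1 the called length differed by 0.40 and the tags per kb by 0.17 on the log2 scale. The other region in each window lay at neighbouring genes, with fold changes of -0.05 ± 0.10 at the Klhl11 end and -0.00 ± 0.18 at the ends of Pgm3 and Rwdd2a.

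Acaca encodes the cytosolic carboxylase that commits acetyl-CoA to fat synthesis, and its long span held 36 regions. The start of the span, shared with Tada2a (chr11:84128679-84130227), was lower in d22 at -0.29 ± 0.20, with 18.2 to 22.8 CPM in d22 and 15.3 to 30.6 CPM in pbs. The strongest region lay about 50 kb into the gene, at chr11:84179685-84182614, with 110.0, 126.5 and 203.0 CPM in d22 and 81.9, 94.5 and 117.8 CPM in pbs. Of the d22 libraries, d22 3 and d22 5 fell within the pbs range and d22 4 was far above the rest. The fold change was 0.48 ± 0.13, and 0.35 without d22 4. It was 0.26 under library totals and -0.11 in fold enrichment. The narrow region just before the strongest one, chr11:84178489-84179631, had -0.19 ± 0.19.

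Around the annotated inner start of Acaca, printed above, acetylation was weak and called more often in d22. The region over that start, chr11:84194906-84196860, was called in 6 d22 and 4 pbs libraries, and the next, chr11:84196874-84198238, in 6 d22 and 2 pbs libraries. Regions at chr11:84191814-84192871 and chr11:84199018-84200335 were called in 4 and 3 d22 libraries and in 0 pbs libraries. Over all 18335 regions called in 2 to 11 libraries, 4.81% were called in at least 3 more d22 libraries. The regions here were named after their values were seen, and nothing is read from their counts. Calls in all 6 d22 libraries include d22 4, which had the longest peak list. The block of 8 regions from 84189866 to 84201019 held 2.71, 12.9 and 26.2 RPM in 6 d22 libraries and 1.52, 6.11 and 10.7 in the 5 pbs libraries with any call. The ranges overlapped, d22 5 being the low d22 library. A called peak covered the start base itself in 2 d22 and 0 pbs libraries.

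Acacb, the mitochondrial-surface carboxylase whose malonyl-CoA restrains fatty acid oxidation, gave unlike values at its own regions. The span start (chr5:114145092-114148534) had 64.7, 95.9 and 178.3 CPM in d22 and 69.1, 84.4 and 95.2 CPM in pbs. The d22 range enclosed the pbs range, and the fold change was 0.28 ± 0.18, or 0.09 without d22 4. Under library totals it was 0.05, and in fold enrichment -0.34. An internal region (chr5:114154838-114158075) had 22.6, 40.8 and 67.3 CPM in d22 and 9.6, 17.0 and 37.9 CPM in pbs. Libraries pbs 1 and pbs 6 lay within the d22 range and the other 4 below it. There the fold change was 0.98 ± 0.32, and 0.83 without d22 4, with 0.80 in called length and 0.38 in tags per kb.

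At Scd1, stearoyl-CoA desaturase, the mark was low in every library and higher in d22. The whole window held 7.87, 14.7 and 23.6 RPM in d22 and 3.24, 4.55 and 11.1 in pbs. Only pbs 6, at 11.1, reached the d22 range. The highest fold enrichment of the window was 16.8 to 38.0 in d22 and 10.4 to 14.5 in pbs, without overlap, which was so for 0.354% of all windows. This measure depended on the window. Its log2 ratio of means was 0.79, but 0.32 with the span extended by 2 kb and 0.34 with no extension. The region at the upper end of the gene, chr19:44404843-44408809, was called in 6 d22 and 5 pbs libraries, with 4.63, 6.42 and 10.0 RPM in d22 and 1.44, 1.58 and 5.18 in the 5 pbs libraries.

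Regions on either side of Scd1 showed the same order. The region 4555 bp beyond the lower end of the span, chr19:44387609-44389895, was called in all 12 libraries with 15.03, 33.02 and 50.27 CPM in d22 and 10.90, 15.78 and 24.95 CPM in pbs. Library d22 3 lay among the pbs libraries and the other 5 stood above them. The fold change was 0.91 ± 0.27, or 0.78 without d22 4. The region 9901 bp beyond the upper end, chr19:44417610-44420223, was called in 5 d22 libraries and 1 pbs library.

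Elovl6, the elongase of palmitate, had nearly equal levels at its start. The region chr3:129530906-129537133 had 149.9, 168.2 and 189.0 CPM in d22 and 156.7, 158.9 and 177.4 CPM in pbs, and the pbs range lay inside the d22 range. The fold change was 0.07 ± 0.08. An internal region, chr3:129591995-129593808, had 0.51 ± 0.34, with 0.26 without d22 4 and -0.27 in fold enrichment.

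Srebf1 is the regulator of the group, and the groups overlapped at both of its acetylated start regions. RefSeq gives starts at 60222581 and 60220627 inside 1 acetylated region (chr11:60219055-60224067) and at 60210471 inside another (chr11:60206253-60211463). The upstream region had 116.7, 147.0 and 165.7 CPM in d22 and 115.8, 120.6 and 134.6 CPM in pbs, with d22 1 and d22 4 in the pbs range. Its fold change was 0.22 ± 0.09, with -0.01 under library totals and -0.30 in fold enrichment. The inner region had 57.9, 75.9 and 93.0 CPM in d22 and 33.4, 48.1 and 93.5 CPM in pbs, where pbs 6 was as high as the highest d22 library, pbs 1 was within the d22 range and the other 4 were below it. Its fold change was 0.33 ± 0.21, 0.23 to 0.52 on leaving out each library, and 0.77 without the 3 pbs libraries whose tags were 48 bp long (pbs 1, pbs 4 and pbs 6).

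**Figure D3:**
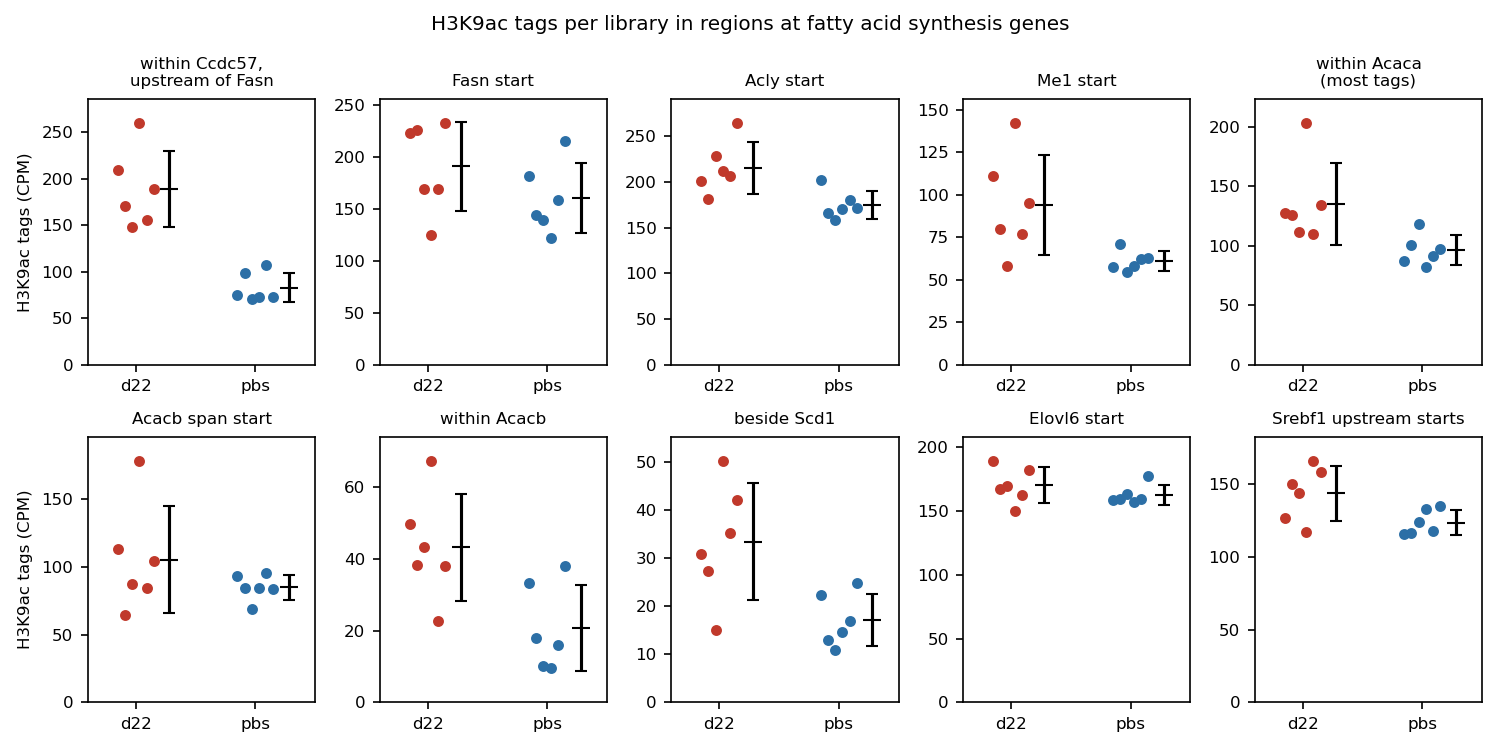
H3K9ac tags in CPM (y axis) of each library in 10 regions, d22 left of pbs, with bars for the mean ± SD of 6 libraries. The groups are apart at the region within Ccdc57 upstream of Fasn and overlap in the other 9.

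Tags were set beside the length and the density of the called peaks. In the regions within Acacb and beside Scd1 and at the Me1 start, called length differed by more than tags per kb between d22 and pbs, while in the region within Ccdc57 tags per kb differed by more. Called length is set by the caller, so it shares the input and the depth with the tags. Over all 18 regions the median difference in tags per kb, relative to all regions, was 0.10.

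**Figure D4:**
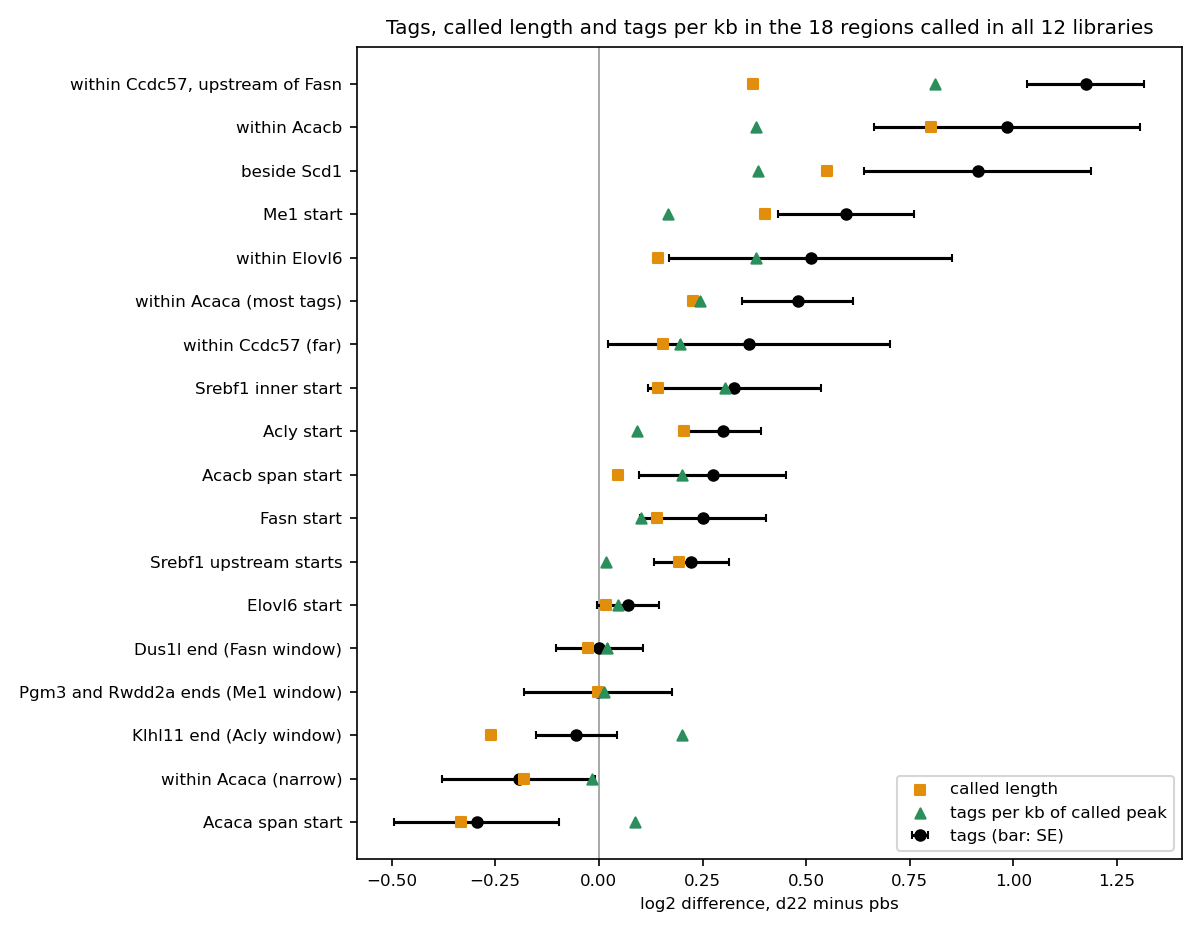
Log2 differences, d22 minus pbs (x axis), in tags (black, bars SE), called length (orange) and tags per kb of called peak (green) for the 18 regions called in all 12 libraries (y axis). Tags range from -0.29 at the Acaca span start to 1.17 within Ccdc57, and the regions of neighbouring genes lie near 0.

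Summit positions overlapped between the groups. The main summit lay 287 to 448 bp downstream of the Acly start in d22 and 281 to 487 bp in pbs, and 452 to 1043 bp downstream of the Me1 start in d22 and 435 to 683 bp in pbs. At Elovl6 it lay 145 to 877 bp downstream in d22 and 131 to 1813 bp in pbs. No library had a called peak over the RefSeq promoter start of Acacb (114165518) or the inner start of Me1 (86687277). In all 12 libraries the summit was downstream of the annotated start at Fasn, Acly, Me1, Elovl6 and the Srebf1 starts, and of the span start at Acacb. At the start of the Acaca span it was upstream in all 12, at offsets of -454 to -363 bp in d22 and -479 to -370 bp in pbs. It was downstream in 6 of 11 libraries at the Ccdc57 start and in 9 of 10 at the inner Acaca start.

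The 35 regions called in 2 to 11 libraries were called in more d22 libraries in 19 cases, in more pbs libraries in 9 and equally in 7. Over all 18335 such regions, 33.0% were called in more d22 libraries and 41.0% in more pbs libraries. Called in at least 3 more d22 libraries were 7 of 35 regions (background 4.81%), and in at least 3 more pbs libraries 2 of 35 (background 6.66%). The contrast chose the genes, so nothing is read from these counts. Of the 66 regions called in 1 library, 51 were from d22 and 15 from pbs, and 36 were from d22 4 alone. The d22 share was 77.3%, against 73.95% over all regions called in 1 library.

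Near the edge of the windows, the last region inside that was called in all 12 libraries lay at Dus1l, 8734 bp from Fasn. It differed by 0.00 ± 0.11 in tags and by -0.98 in fold enrichment. Closer to the edge lay the partly called Scd1 region given above. Outside, the nearest regions differed by 0.02 ± 0.10 at the ends of Alkbh2 and Ung (11228 bp from Acacb), by -0.12 ± 0.15 beyond Srebf1 (15818 bp) and by 0.36 ± 0.24 at Ttc25 (16546 bp from Acly).

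Other genes of the pathway, taken from a list of 51 written with earlier results of these data known, gave more negative than positive values. Of 49 that had a region called in all 12 libraries, 1 was higher and 2 were lower at an adjusted p under 0.05 (edgeR over 12375 regions, of which 0.453% were higher and 0.558% lower). Of these 49, 17 had a positive and 32 a negative fold change, with a median of -0.08. Over all 12375 regions, 50.9% were positive. Thrsp, listed under control of acetyl-CoA carboxylase and malonyl-CoA, rose by 1.30 ± 0.16 (edgeR adjusted p = 0.000443). It had 167.3 to 271.3 CPM in d22 and 53.7 to 110.7 CPM in pbs. Its relative Mid1ip1 had 0.34 ± 0.09 (edgeR adjusted p = 0.120).

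Both genes that fell belonged to elongation, desaturation and activation, where 2 of 14 tested genes were lower and 0 higher by edgeR. Of the 14, 5 had an unadjusted p under 0.05, and 4 values were positive and 10 negative. Over all 12375 regions, 1348 had an unadjusted p under 0.05. Fads2, a desaturase of polyunsaturated fatty acids, had 92.8 to 123.6 CPM in d22 and 160.8 to 212.9 CPM in pbs, and its log2 fold change was -0.80 ± 0.09 (edgeR adjusted p = 0.000443). Acsl1, which activates long-chain fatty acids to their CoA esters, had 170.7 to 230.7 CPM in d22 and 252.8 to 330.5 CPM in pbs, with -0.54 ± 0.10 (edgeR adjusted p = 0.00861). Hacd3, a dehydratase of the elongation cycle, had 230.3 to 258.0 CPM in d22 and 269.8 to 303.9 CPM in pbs, with -0.27 ± 0.07 (edgeR adjusted p = 0.0628). Among 13 genes of SREBP and LXR control, 0 passed by edgeR (3 at an unadjusted p under 0.05), and 2 had positive and 11 negative values. Srebf2, a relative of Srebf1, had -0.34 ± 0.09 (edgeR adjusted p = 0.0750). Carbon and NADPH supply had 0 of 9 tested genes past the threshold by edgeR (3 at an unadjusted p under 0.05), with 4 positive and 5 negative. Mitochondrial fatty acid synthesis had 0 of 4 by edgeR (0 at an unadjusted p under 0.05).

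Regions elsewhere with a profile most like the Fasn start over the 12 libraries were 5 with a Pearson r of 0.85 to 0.95, led by Tspan14 (0.95), Necap2 (0.88) and Slc25a45 (0.86), out of 8976 regions at gene ends. Most like the mean of the 7 main regions of these genes were 5 with an r of 0.89 to 0.94, led by Kctd6 (0.94), Eml3 with Rom1 (0.93) and Abca1 (0.91). These are descriptions over 12 libraries that share group and depth. Within groups, after removing each group's mean, the region inside Ccdc57 varied most closely with the Me1 start (r = 0.84), and the Fasn start with the Elovl6 start (r = 0.80). These were the highest values among all pairs of the 18 regions. The region inside Ccdc57 also had the lowest value, -0.78 with the Klhl11 end in the Acly window. It had -0.73 with the upstream Srebf1 region and -0.23 with the Fasn start, so the regions did not vary together as a group.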

How the data were processed

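The data were 12 tables of H3K9ac ChIP-seq peaks, 1 for each library, grouped by title into 6 d22 and 6 pbs libraries. The 2 pooled inputs were not analysed here. Per the submitters' processing notes, CASAVA 1.8, Novoalign and MACS 1.4.2 were used with mm10. Per the file headers, each library was called alone against the pooled input of the same title at a p-value cutoff of 1e-05, with at most 1 tag kept per position. Tags were 48 bp long in pbs 1, pbs 4 and pbs 6 and 49 bp in the rest. The deposited tables give a raw count of tags in each peak, a fold enrichment ratio over local background, a score made from the log10 of the p-value and, in percent, an estimated false discovery rate.

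Overlapping peaks were merged into regions, and tags, called length and the highest fold enrichment were taken in each region and library. A region absent from a list has no value rather than 0, so 12375 regions called in all 12 libraries were fitted (edgeR 4.0.16 quasi-likelihood, TMM scaling, R 4.3.3, Benjamini-Hochberg). Regions outside that set were described by the number of libraries and by RPM (tags per 1000000 filtered tags), as were the gene windows. RefSeq (GRCm38.p6) gave spans and promoter windows, and exons were not used here. The 9 genes, the pathway list and the marker lists were chosen with earlier results of these data known. The text names all 9 genes with their main regions, other regions past the threshold or with the largest difference, and for the pathway list those past the threshold. Hacd3, Srebf2 and Mid1ip1, next in order of p, were named after their values were seen. Partly called regions of Acaca and Scd1 were named after their values were seen. Tests on simulated data, with 12375 regions in the d22 against pbs design, recovered 52% of regions changed 1.5-fold and 85% of those changed 2-fold. No libraries were duplicates: the chi-square per degree of freedom was 2.41 to 10.3 over 66 pairs. Alternatives were DESeq2 1.42.0, limma 3.58.1 on tags per kb and on fold enrichment, other scalings, filters, stricter or joined peaks, other windows, a replicate block, leaving out each library, and, chosen after seeing the data, the 9 libraries with 49 bp tags alone. With 6343891 to 13259411 tags per library, counts carry counting error that the fit includes.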

Additional observations from a re-analysis of the deposited data

Results flagged for a closer look

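Of 72 sets of 6 libraries examined, 3 had 1 library far from the other 5, and chance marks about 5% of such sets. In the strongest region within Acaca, d22 4 had 203.0 CPM against 110.0 to 134.4 CPM in the other d22 libraries. This is the shallowest library, with the longest peak list. At the Elovl6 start, pbs 6 had 177.4 CPM against 156.7 to 162.8 CPM in the other pbs libraries. In the Srebf1 window, d22 2 had 57.5 RPM against 35.9 to 43.9 in the other d22 libraries. What set these libraries apart was not tested.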

How the results depend on the processing

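The contrast chose the 9 genes, so the counts over their regions and windows are descriptions and support nothing. Regions of these genes past the threshold numbered 1, with 4 in DESeq2 (adding those at Me1, within Acaca and beside Scd1), 3 in limma on fold enrichment (2 higher and, at the Dus1l end, 1 lower) and 1 to 3 on leaving out a library, 3 being without d22 3. Positive values numbered 14 of 18, 5 in fold enrichment and 13 to 15 on leaving out a library. Windows with a higher d22 mean numbered 9 for tags (6 to 9 on leaving out a library), 9 for called length (8 to 9), 7 for peak number (4 to 9, 4 being without d22 4) and 3 for highest fold enrichment (1 to 3, 1 being without d22 4). All regions past the threshold numbered 125 (56 higher, 69 lower), with 272 in DESeq2, 454 under library totals (26 higher, 428 lower), 5 in tags per kb, 2503 in fold enrichment (166 higher, 2337 lower), 39 with 49 bp tags alone (26 higher, 13 lower, from 9 libraries) and 64 to 139 on leaving out a library. Pathway genes past the threshold numbered 3, with 5 in DESeq2, 7 under library totals (1 higher, 6 lower), 0 in limma on tags per kb (3 at an unadjusted p under 0.05), 11 in fold enrichment (1 higher, 10 lower) and 3 to 5 on leaving out a library, 5 being without d22 4. The cause of these shifts was not tested. Of 936 single values under the alternatives, 34 moved by more than the spread between libraries, 13 of them in fold enrichment.

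Replicate numbers did not pair the libraries: same-numbered libraries correlated at -0.01 to 0.16, and only number 2 was its own best partner. With the replicate block 128 of all regions, 1 region of these genes and 3 pathway genes were past the threshold, and 14 of 18 values stayed positive.

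Weak regions limit what can be seen. At Scd1 and the inner start of Acaca a region missing from a list can hold tags below the caller's cutoff, so differences in calls there are not measured levels. Treatment labels that contradict the titles leave the direction of every difference tied to titles alone.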
